A study of Rattus norvegicus with 70 samples.

Results

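The enzymes described here attach glucuronic acid, sulfate or glutathione to foreign and endogenous molecules in the rat. They were chosen by symbol: every row of the count table that names a Ugt1 or Ugt2 UDP-glucuronosyltransferase, a Sult sulfotransferase, a cytosolic glutathione S-transferase of the alpha, kappa, mu, omega, pi, theta or zeta class, or an Mgst microsomal transferase. The rule found 57 of 17048 rows, with 56 distinct symbols because Gstm5 has 2 rows, of which one held no count in any library. Of these rows, 47 reached a mean of at least 1 CPM (counts of a gene scaled to a common library total) in vehicle rats of some organ and sex, and 26 to 39 passed the filter on low counts and were tested within one organ and sex.

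The samples were 70 libraries from Sprague-Dawley rats killed on postnatal day 63: liver, kidney and thyroid of both sexes, testis and ovary. Vehicle rats were compared with rats given bisphenol A (BPA), the plastic monomer that binds oestrogen receptors, or a mixture (Mix) of BPA with its substitutes bisphenol F (BPF) and bisphenol S (BPS). Dams received BPA at 500 mg/kg/day, or BPA at 160, BPF at 160 and BPS at 180 mg/kg/day together, by mouth from day 6 of gestation until day 6 of lactation, and pups received 250 mg/kg/day of the same agent from day 7 to day 63. Each group held 3 rats except female kidney, with 2 vehicle, 2 BPA and 3 Mix rats. Litters were reduced on day 4 to 3 pups of each sex per dam and the labels do not give the dam, so rats of a group may be littermates, and the p-values below measure only the spread between these rats.

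Glucuronidation uses UDP-glucuronic acid, is carried out in the endoplasmic reticulum and is the main route by which rats clear bisphenol A, for which Ugt2b1 is the best known liver enzyme. Sulfation uses the cofactor PAPS in the cytosol; Sult1e1 has oestrogens and the Sult2a enzymes have hydroxysteroids and bile acids as substrates. Glutathione S-transferases join glutathione to electrophiles, and the liver of adult rats is known for sex-specific levels of several of these enzymes, set by the pattern of growth hormone secretion.

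The libraries were made with a 3′ kit, which gives about 1 fragment per transcript whatever its length, so a level in CPM is a count of transcript ends and was not divided by length. That matters for the Ugt1 locus, where the RefSeq annotation (assembly GRCr8) ends all 8 listed Ugt1a genes at 1 shared base: the Ugt1a1 row held 178484 counts over all libraries and the other 7 rows together 219, so Ugt1a1 took 99.9% of the family. The Ugt1a1 value therefore stands for the whole locus, and nothing can be said of Ugt1a6 or the other first exons. The counts of some rows ran together in libraries with at least 20 counts in each. Ugt2b10 over Ugt2a1 lay between 1.29 and 1.72 in 27 libraries, with a median of 1.47, so these rows are not treated as separate evidence. Gsta2 over Gsta5 lay between 1.75 and 5.88 in 54 libraries, with a median of 2.54, and was also tested as a sum.

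The stretches before the starts of 4 genes named in the liver and ovary results are shown, and their part in those results was not tested. They are 250 bases long, read 5′ to 3′ on the strand of the gene, from RefSeq on GRCr8, whereas the reads were counted on rn6. Symbols of such gene clusters can be assigned differently between builds, so a window may belong to another gene copy than the row counted under its symbol. A promoter was found by symbol for 48 of the 56 member symbols. Sult2a1 and Sult2a6, hydroxysteroid sulfotransferases of chromosome 1, come first, with the 5 bases at which they differ in capitals.
Sult2a1, chr1:84638948-84639197, minus strand: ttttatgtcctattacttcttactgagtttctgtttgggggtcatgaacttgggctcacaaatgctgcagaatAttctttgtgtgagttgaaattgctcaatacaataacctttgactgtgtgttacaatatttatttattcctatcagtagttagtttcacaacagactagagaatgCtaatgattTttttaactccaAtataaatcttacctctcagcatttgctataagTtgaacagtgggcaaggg
Sult2a6, chr1:84097809-84098058, minus strand: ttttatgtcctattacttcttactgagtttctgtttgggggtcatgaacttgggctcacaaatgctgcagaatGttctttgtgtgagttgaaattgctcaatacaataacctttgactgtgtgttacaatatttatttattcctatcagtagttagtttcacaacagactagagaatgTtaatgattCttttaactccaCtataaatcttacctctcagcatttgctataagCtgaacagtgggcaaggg
They shared 245 of 250 bases, or 98%, while Sult2a1 and Sult2a2 shared 81.7% of 263 aligned columns. The inverted repeat GGTCATGAAC, the core of the IR0 element through which bile acid and xenobiotic receptors are known to act on rat Sult2a genes, began 211 bases before the start in both. It was chosen for the search after the windows had been read, and occurred on either strand in 0.0508% of 33469 promoter windows of this length, among the members only in Sult2a1, Sult2a2 and Sult2a6. Gsta2 and Gsta5, alpha-class transferases of chromosome 8, follow, with 1 of the 3 runs of 7 bases that they share, their longest, in capitals.
Gsta2, chr8:88077093-88077342, minus strand: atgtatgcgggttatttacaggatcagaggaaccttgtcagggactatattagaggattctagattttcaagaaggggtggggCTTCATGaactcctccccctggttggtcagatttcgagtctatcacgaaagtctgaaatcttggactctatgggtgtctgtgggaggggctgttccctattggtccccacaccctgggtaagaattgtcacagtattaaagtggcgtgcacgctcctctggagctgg
Gsta5, chr8:87988104-87988353, plus strand: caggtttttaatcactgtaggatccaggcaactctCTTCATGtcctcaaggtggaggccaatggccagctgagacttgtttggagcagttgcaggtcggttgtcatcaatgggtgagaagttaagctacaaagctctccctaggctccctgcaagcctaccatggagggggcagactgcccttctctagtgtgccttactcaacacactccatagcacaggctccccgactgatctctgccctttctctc
These windows were 46.3% identical over 287 aligned columns. The windows of Sult2a1 and Sult1e1, sulfotransferases of chromosomes 1 and 14, were 47.7% identical, and no pair from different families was aligned. Neither the Gsta2 nor the Gsta5 window held the antioxidant response element core TGACNNNGC, present in 10.1% of all windows and in those of Gsta3, Gstm5, Gstm7, Gstp1 and Gstz1. The STAT core TTCNNNGAA (7.67% of windows), the AP-1 site TGANTCA (6.34%) and the NR5A1 site CAAGGTCA (1.33%), searched on both strands, were also absent from all 4 windows. The AP-1 letters can overlap those of the antioxidant core, and a missing match says only that these letters are not in these 250 bases.

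Total counts per library ran from 4803807 to 10929957, and rows of ribosomal RNA took 0.660% to 37.2% of them. In kidney that share moved with the groups: 1.71% to 3.50% in vehicle males, 16.4% to 37.2% in BPA males, 1.42% to 20.2% in Mix males, and 17.2% to 37.1% in females. The 5 liver, kidney and thyroid markers and 4 of 5 ovary markers (Foxl2 has no row) were detected in their own organs, where each list summed to more than in any library of another organ. Testis germ cell markers (Tnp1, Prm1, Tnp2, Odf1 and Pgk2) were also counted outside the testis. Their summed level reached 16810 CPM in male thyroid BPA replicate 1, 3682 and 2168 CPM in female thyroid vehicle replicates 1 and 2, and 1875 CPM in a male kidney, against 45580 to 70770 CPM in testis. How these counts came to be in organs outside the testis, those of females among them, was not tested. For an organ's own cells, fewer cells of a type and less RNA per cell cannot be told apart in whole organs.

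In vehicle rats the scaled levels of the members summed to 18110 CPM in female liver, 12010 CPM in male liver and 2606 CPM in testis. In kidney they summed to 8415 CPM in males and 4790 CPM in females. Scaling was done within one organ and sex, so the ribosomal RNA shares given above enter any comparison of these sums, which was not tested. Summed Ugt2 rows were highest in liver, at 902 CPM in males and 1307 CPM in females, against 307.5 CPM in female kidney. The Sult rows outside Sult1 were also highest in liver, at 985 and 8214 CPM. Summed Sult1 rows were at 1398 and 726 CPM in male and female liver and 795 and 817.5 CPM in male and female kidney. Sult2a1 averaged 5102 ± 1394 CPM (SD, n = 3) and Sult2a6 3011 ± 643 CPM in female liver, and Mgst1, the membrane-bound transferase that also reduces lipid peroxides, 3101 CPM in female and 2586 CPM in male liver. Ugt2b1 was a gene of the liver, at 67.6 ± 14.6 CPM in males and 129 ± 69.3 CPM in females, and at most 0.593 CPM in any other organ. Ugt1a1 was shared by liver (774 and 594 CPM in males and females) and kidney (799 and 604 CPM), and was at 17.6 to 60.8 CPM elsewhere. The order of its liver and kidney levels was not tested across organs.
Gsta1 was abundant in all organs, from 614 CPM in testis to 2960 CPM in male thyroid. Gstt3 was at 1418 CPM in male and 585 CPM in female kidney and 836 CPM in ovary. Kidney held Sult1c2a (542 and 679 CPM in males and females) and Mgst3 (613 and 210.5 CPM). Thyroid held Sult5a1 (178 and 149 CPM), Gsta3 (296 and 279 CPM) and Sult1d1 (20.9 and 18.6 CPM), the last at under 1 CPM in every other organ. Ovary held Mgst2, a transferase that can also make leukotriene C4, at 1218 CPM, and testis held Gstt4 (405 CPM), Gstm5 (315 CPM), Gstm6 (205 CPM) and Gsto2 (65.6 CPM).
Over the 24 group means, the genes whose log levels ran most like Ugt2b1 were Agxt (Pearson r = 0.9955), Slc30a10 (0.9952), Vsig4 (0.9948), Ugt2b37 (0.9945) and Ang2 (0.9938), all compared with 12263 rows. For Gsta2 they were Gsta5 (0.9929), Agmat (0.967), Cyp4f1 (0.9539), Kmo (0.9537) and Ugt1a1 (0.951). These values describe differences between organs, which share rats, and carry no test.

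**Figure D1:**
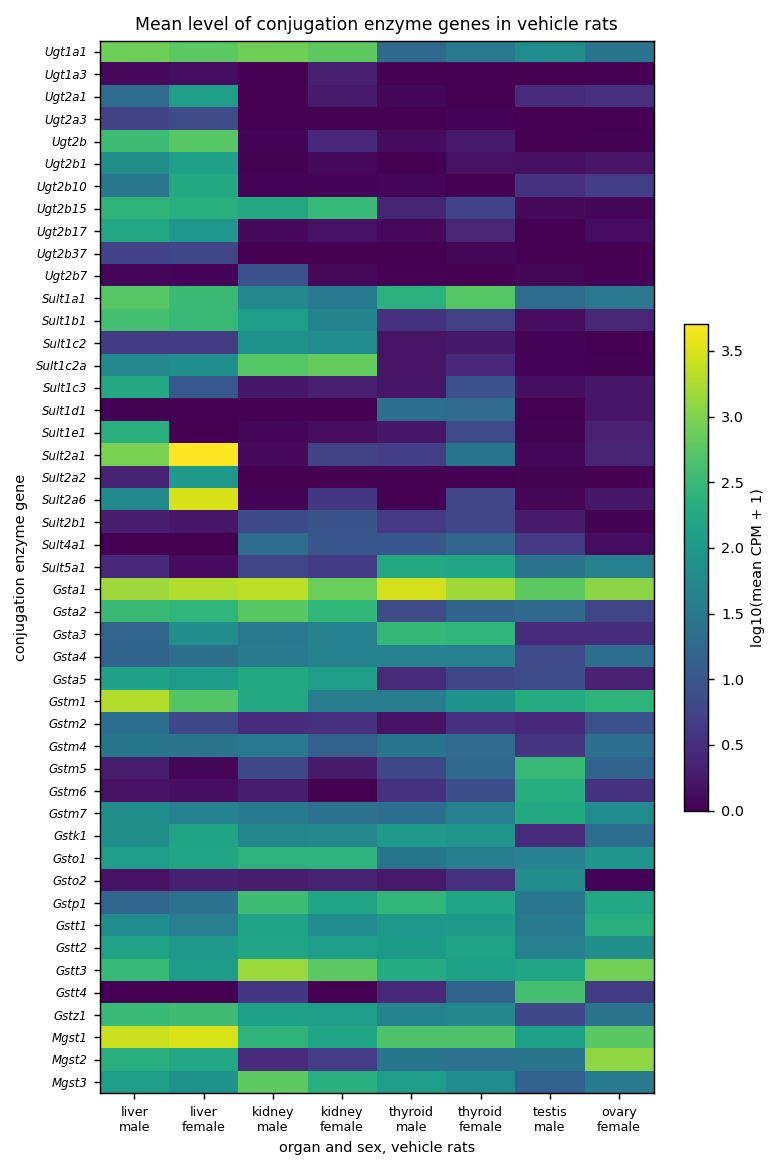
Mean level in vehicle rats, as log10(CPM + 1) by colour, of the 47 conjugation enzyme genes that reached 1 CPM (rows) in each organ and sex (columns). Most Ugt2 and all Sult2a rows are at their highest in liver (Ugt2b7 and Ugt2b15 are not), Sult1c2a and Mgst3 in kidney, Sult5a1 and Gsta3 in thyroid, Gstt4, Gstm5 and Gstm6 in testis, and Mgst2 in ovary.

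The first comparison asked how vehicle males and females differ in liver. Of 41 members tested, 12 differed between the sexes (edgeR's quasi-likelihood test, Benjamini-Hochberg adjusted p under 0.05 over 10044 genes), 6 higher and 6 lower in females, against 4.23% of all genes. The median log2 difference was -0.13 over the members and -0.02 over all genes. The female-high members were the hydroxysteroid sulfotransferases Sult2a1, Sult2a2 and Sult2a6, the Ugt2b10 and Ugt2a1 rows, which run together, and Gsta3. The male-high members were Sult1e1, Sult1c3, Mgst3 and 3 mu-class transferases, Gstm1, Gstm2 and Gstm7.
Sult2a6 was at 45.8, 47.4 and 83.6 CPM in the 3 males and 3416, 3347 and 2270 CPM in the 3 females. Every female lay far above every male, a 48.5-fold difference (log2 5.60 ± 0.53 SE, adjusted p = 2.22e-07).
Sult2a1 was at 559, 1361 and 844 CPM in males and 6692, 4522 and 4092 CPM in females, without overlap, and was 5.25-fold higher in females (log2 2.39 ± 0.29, adjusted p = 9.89e-06). The ratio of Sult2a1 to Sult2a6 ran from 1.31 to 28.7 over the 22 libraries with 20 counts in each, and reads of these near-identical genes may be shared between their rows. Sult2a2 was 0.723, 1.97 and 1.04 CPM in males and 277, 14.6 and 8.23 CPM in females (log2 6.20 ± 1.49, adjusted p = 0.0183). Without vehicle female replicate 1 it was 3.07 and did not pass (adjusted p = 0.222), nor did it pass without any one of the vehicle males.
Ugt2b10 was at 19.2, 25.0 and 38.1 CPM in males and had a mean of 176 ± 21.6 CPM (SD, n = 3) in females, the lowest at 162 CPM, without overlap (log2 2.61 ± 0.25, adjusted p = 2.22e-07). Ugt2a1, which runs with it, gave log2 2.53 ± 0.26 (adjusted p = 6.64e-07), and their sum was 5.97-fold higher in females (log2 2.58 ± 0.25, adjusted p = 3e-07). The alpha-class Gsta3 was the other female-high member (log2 1.98 ± 0.55, adjusted p = 0.0445), a call lost in 12 of 18 fits that left out 1 library.
Sult1e1, the oestrogen sulfotransferase, was at 161, 167 and 295 CPM in males and held no count in the 3 vehicle females. With 6172 counts in males against a floor of 3 counts over the female group, it was at least 1426-fold lower in females (adjusted p = 2.06e-08).
Sult1c3, another cytosolic sulfotransferase, was at 204, 152 and 157 CPM in males and 7.97, 6.18 and 13.9 CPM in females, with every male above every female (log2 -4.27 ± 0.68, adjusted p = 0.000342). Gstm1, the main mu-class transferase of liver, was at 2009, 2071 and 1647 CPM in males and 567, 553 and 453 CPM in females, again without overlap (log2 -1.94 ± 0.23, adjusted p = 8.15e-06). The remaining male-high members were Gstm2 (log2 -2.10, adjusted p = 0.033), Gstm7 (-0.71, adjusted p = 0.0444) and Mgst3 (-0.68, adjusted p = 0.0289), whose calls were lost in 4, 14 and 6 of 18 fits that left out 1 library.
Sult2a1, Sult2a6, Sult1e1, Sult1c3, Gstm1, Ugt2b10 and Ugt2a1 passed whichever of the 18 libraries was left out. The number of members called fell from 12 to 7 without vehicle female replicate 1, vehicle male replicate 1 or vehicle male replicate 2. Ugt1a1, Sult1a1, Gsta2, Gstp1, Mgst1 and Ugt2b1 were not among the members called. Ribosomal RNA took 2.505% to 23.4% of counts in vehicle male livers and 13.9% to 24.2% in vehicle female livers, and its part in these differences was not tested.

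The row named Ugt2b was low in 3 livers of 3 groups. It was at 3.90 CPM in 1 vehicle female liver against 697 and 982 CPM in the other two, at 10.1 CPM in 1 vehicle male against 478 and 560 CPM, and at 14.0 CPM in 1 Mix male against 455 and 348 CPM. In the 9 livers of the other groups it lay between 363 and 1196 CPM. The same 3 libraries had Ugt2b15 at 198 to 336 CPM and Ugt2b17 at 81.6 to 226 CPM, so the low values did not extend to those rows. Sult2a2 was also split among females, at 125 to 381 CPM in 4 livers and 4.80 to 14.6 CPM in 5, with high and low libraries in every treatment group. These libraries were picked after their values were seen and no test was made on them.

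Under BPA, 1 of 38 members passed in female liver, against 0.419% of 9554 genes (DESeq2 called 5). Gstm1 was at 567, 553 and 453 CPM in vehicle, 1578, 829 and 1206 CPM in BPA and 894, 655 and 800 CPM in Mix females. All 3 BPA livers lay above all 3 vehicle livers, a 2.30-fold rise (log2 1.20 ± 0.23, adjusted p = 0.0406). That call held in 1 of 9 fits that left out a library, with a largest adjusted p of 0.177. Under Mix the log2 difference was 0.58 (adjusted p = 0.676). Liver markers summed to 113700–132600 CPM in vehicle, 75850–79570 CPM in BPA and 62740–107700 CPM in Mix females, with all 5 detected; their part in the result was not tested.
Among the other members under BPA in females, Ugt2b10 (log2 -0.87, adjusted p = 0.0664) and Ugt2a1 (-0.82, adjusted p = 0.0997) did not pass. In males the same pair gave 1.01 (adjusted p = 0.27) and 0.99 (adjusted p = 0.314).
The difference between the sexes did pass. Ugt2b10 went from 176 ± 21.6 CPM in vehicle females to 94.4, 94.8 and 99.8 CPM in BPA females, and from 19.2, 25.0 and 38.1 CPM in vehicle males to 59.3, 56.7 and 49.3 CPM in BPA males. Vehicle and BPA libraries did not overlap in either sex, and the female minus male difference in the BPA effect was log2 -1.88 ± 0.33 (adjusted p = 0.0161). Ugt2a1 gave -1.80 ± 0.35 (adjusted p = 0.0295) and the sum of the pair -1.85 ± 0.33 (adjusted p = 0.0176). These 2 rows, which run together and are not separate evidence, were the 2 of 41 members called in that contrast, against 0.209% of 10044 genes. Ugt2b10 lost its call, and the count became 0, without vehicle female replicate 3, BPA male replicate 1, or vehicle male replicates 1 or 2. Ugt2a1 lost its call in these fits and without BPA female replicate 1, vehicle female replicate 1 or BPA male replicate 2.
No member passed in the other treatment contrasts of liver. In males edgeR called 0 of 39 for BPA (0.228% of 9669 genes; 8 members had an unadjusted p below 0.05, DESeq2 called 2, and edgeR called 1 without Mix male replicate 2), 0 for Mix (0.321%; 7 and 1) and 0 for Mix against BPA (0.0103%; 3 and 0). In females it called 0 of 38 for Mix (0.0523%; 5 members below 0.05, none by DESeq2) and 0 for Mix against BPA (0%; 8 and 1). The Mix effect differed between the sexes for 0 of 41 members (0.189%; 6 and 0).
All 8 members below 0.05 under BPA in male liver were higher. Ugt2b1, the bisphenol glucuronosyltransferase, was at 69.9, 81.0 and 52.0 CPM in vehicle, 139, 189 and 91.5 CPM in BPA and 92.7, 224 and 134 CPM in Mix males. Each treated liver lay above each vehicle liver, with log2 1.05 ± 0.32 for BPA (adjusted p = 0.395) and 1.15 ± 0.32 for Mix (adjusted p = 0.243), neither past the threshold. Mgst3 gave 0.65 (adjusted p = 0.3) under BPA and 0.49 (adjusted p = 0.56) under Mix in males, and 0.64 (adjusted p = 0.439) under Mix in females. The members with the smallest p in the remaining contrasts were Sult1c2 (log2 1.81, adjusted p = 0.411) and Sult1b1 (-0.46, adjusted p = 0.794) for Mix against BPA in males, Gstt3 (1.32, adjusted p = 0.439) for Mix in females, and Mgst2 (-0.94, adjusted p = 0.303) and Gsta3 (-1.15, adjusted p = 0.578) for Mix against BPA in females.

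**Figure D2:**
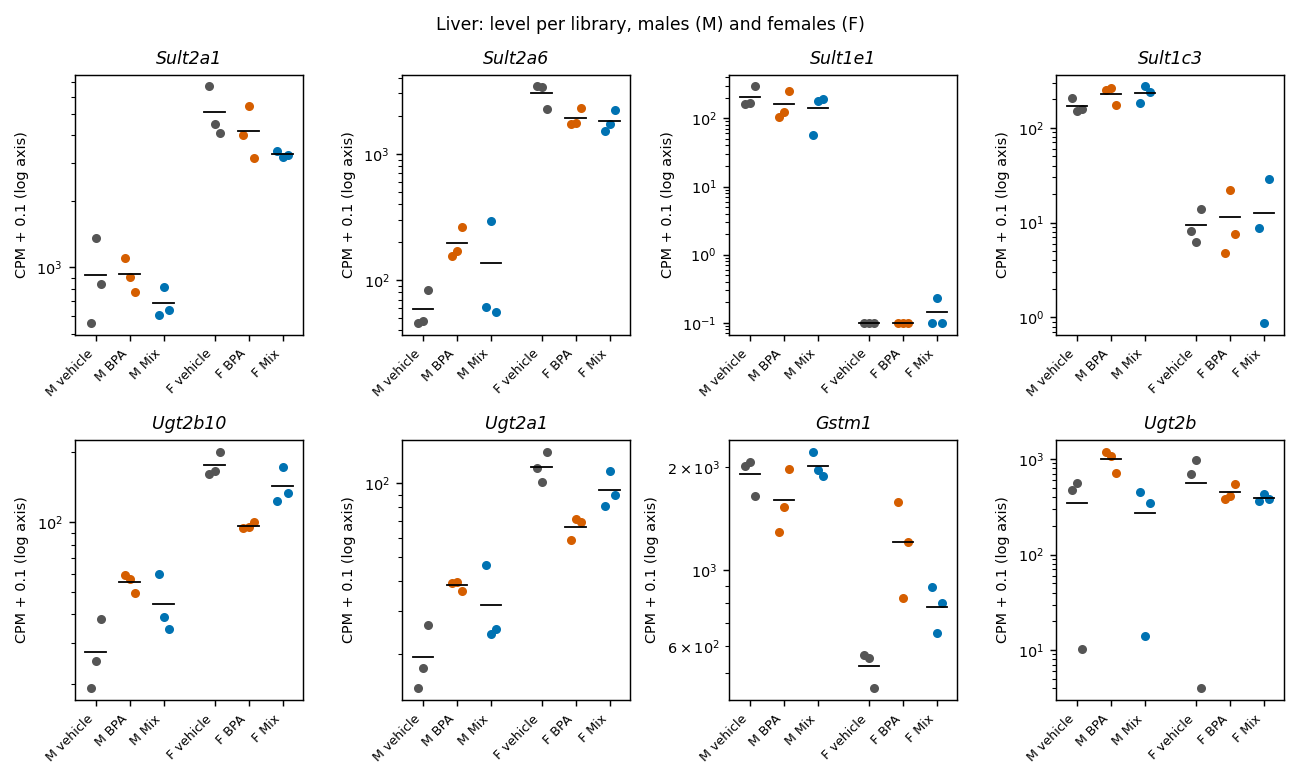
Level per library (points) and group mean (bar) in liver as CPM + 0.1 on a log axis, for males (M) and females (F) by treatment. Sult2a1 and Sult2a6 are higher in all 9 female livers, Sult1e1 and Sult1c3 in all 9 male livers, Ugt2b10 and Ugt2a1 lie closer together in the 2 sexes under BPA than under vehicle, and Ugt2b is near 4 to 14 CPM in 3 libraries.

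Ovary had the most members changed by treatment. Of 26 members tested, 7 passed under BPA (4 higher, 3 lower), against 6.79% of 10871 genes, and 10 under Mix (7 higher, 3 lower), against 9.12%. The median log2 change was 0.20 over the members and 0.01 over all genes under BPA, and 0.30 and 0.01 under Mix; both contrasts share the vehicle ovaries. The alpha-class pair Gsta2 and Gsta5 rose under both treatments and the Ugt2b10 and Ugt2a1 rows under Mix. The count of 10 under Mix holds both Ugt2b10 and Ugt2a1, which run together. Of the microsomal transferases, Mgst2 fell under both treatments, Mgst1 fell under BPA and Mgst3 rose under Mix.
Gsta2, an alpha-class transferase, was at 5.73, 5.71 and 3.43 CPM in vehicle, 25.5, 47.1 and 37.3 CPM in BPA and 17.9, 46.3 and 35.5 CPM in Mix ovaries. All 6 treated ovaries lay above all 3 vehicle ovaries, with log2 2.88 ± 0.37 under BPA (adjusted p = 0.00141) and 2.74 ± 0.37 under Mix (adjusted p = 0.00185).
Gsta5 was at 1.21, 1.29 and 1.14 CPM in vehicle, 10.5, 18.2 and 15.5 CPM in BPA and 10.3, 24.6 and 17.1 CPM in Mix. Again no treated library reached down to a vehicle library, and the log2 changes were 3.58 ± 0.41 (adjusted p = 0.000695) and 3.82 ± 0.41 (adjusted p = 0.000681). The vehicle ovaries together held 90 counts of Gsta2 and 22 of Gsta5, so the fold rests on few counts. Summed, the pair rose 8.30-fold under BPA (log2 3.05 ± 0.35, adjusted p = 0.000659) and 8.18-fold under Mix (3.03 ± 0.35, adjusted p = 0.00108), with a Mix minus BPA difference of -0.02 ± 0.30. Both genes passed in both contrasts whichever library was left out and under every other method tried. Vehicle kidneys averaged 579 CPM of Gsta2 in males and 288 CPM in females.
Gsta1, the abundant alpha-class member, was at 1230, 1062 and 1162 CPM in vehicle and 1658, 1914 and 2095 CPM in BPA ovaries, without overlap (log2 0.71 ± 0.17, adjusted p = 0.0309). Gstm7 of the mu class lay at 52.2–68.0 CPM in vehicle and rose to 84.7–105 CPM under BPA (log2 0.68 ± 0.16, adjusted p = 0.0257) and 76.2–102 CPM under Mix (0.62 ± 0.16, adjusted p = 0.0309). Gstt3, of the theta class, was at 765 to 920 CPM in vehicle and 1791, 2088 and 1028 CPM in Mix ovaries (log2 0.97 ± 0.26, adjusted p = 0.0352), and Mgst3 rose by log2 0.64 ± 0.18 under Mix (adjusted p = 0.0446).
Ugt2b10 was at 7.39, 2.58 and 0.979 CPM in vehicle, 3.21, 11.3 and 18.3 CPM in BPA and 29.99, 9.77 and 26.3 CPM in Mix ovaries. The Mix libraries lay above the vehicle libraries while the BPA libraries overlapped them. The sum of Ugt2b10 and Ugt2a1 rose 6.31-fold under Mix (log2 2.66 ± 0.68, adjusted p = 0.0304), and its BPA change of 1.59 ± 0.68 did not pass (adjusted p = 0.176). The difference between Mix and BPA, log2 1.07 ± 0.62, did not pass either (adjusted p = 0.534). Taken singly, Ugt2b10 gave 2.57 ± 0.69 (adjusted p = 0.0372) and Ugt2a1 2.78 ± 0.72 (adjusted p = 0.0317) under Mix, with ranges of 2.12 to 3.64 and 2.38 to 3.87 when 1 library was left out.
Mgst2, at its highest in ovary, was at 1133, 1268 and 1254 CPM in vehicle, 636, 747 and 810 CPM in BPA and 553, 871 and 678 CPM in Mix. Every treated ovary lay below every vehicle ovary, with log2 -0.74 ± 0.17 under BPA (adjusted p = 0.027) and -0.80 ± 0.18 under Mix (adjusted p = 0.0166). Mgst1 lay at 514–653 CPM in vehicle and fell to 277–382 CPM under BPA (log2 -0.79 ± 0.18, adjusted p = 0.0228). Sult5a1 fell by 0.98 ± 0.27 on the log2 scale under BPA (adjusted p = 0.0447). Under Mix, Ugt1a1 went from 23.9 to 28.7 CPM to 13.9 to 15.7 CPM (log2 -0.82 ± 0.20, adjusted p = 0.0246) and Gstp1, the pi-class enzyme, from 142 to 199 CPM to 95.3 to 124 CPM (-0.60 ± 0.16, adjusted p = 0.0373).
No member differed between Mix and BPA in ovary (0 of 26, against 0.212% of genes; 8 had an unadjusted p below 0.05 and DESeq2 called 2). The smallest p-values were those of Gstt1 (log2 0.69, 95% interval 0.29 to 1.09, adjusted p = 0.134) and Gstt3 (0.85, adjusted p = 0.191).
Some markers of steroid-making and follicle cells moved in both directions in the same ovaries. Of the ovary list only Amh is given singly, and the others only in a sum. Cyp17a1 was at 1.80–5.13 CPM in vehicle, 80.4–229 CPM in BPA and 124–265 CPM in Mix, and Lhcgr at 1.63 to 4.98, 25.0 to 50.2 and 20.8 to 57.3 CPM. Amh was at 12.2–14.8 CPM in vehicle, 34.1–41.8 CPM in BPA and 12.3–16.8 CPM in Mix. Star, of the same steroid-cell list, was at 1382–1721 CPM in vehicle and 663–907 CPM in BPA ovaries (log2 -0.90, adjusted p = 0.0137), and gave 0.27 under Mix (adjusted p = 0.383). Hsd3b1 gave 0.00 under BPA (adjusted p = 0.993) and 0.50 under Mix (adjusted p = 0.0549), and Insl3 0.64 and -0.84 (adjusted p = 0.595 and 0.456). The 5 steroid-cell markers, all detected, summed to 8359–10330 CPM in vehicle, 8092–9132 CPM in BPA and 11480–13580 CPM in Mix, and the 4 ovary markers with a row to 1230 to 1485, 1335 to 2318 and 1431 to 1597 CPM. Ribosomal RNA was lower in BPA ovaries (12.4% to 19.1%) than in vehicle ovaries (20.7% to 29.4%), and liver markers summed to 19.3–388 CPM in vehicle, 17.0–48.99 CPM in BPA and 12.01–120 CPM in Mix. With the ribosomal share in the fit, an alternative added after the data were seen, 2 members passed under BPA and 6 under Mix, among them Gsta2 and Gsta5 in both. Among the calls lost under BPA, the log2 value was 0.88 for Gsta1, -0.71 for Mgst1 and 0.49 for Gstm7. It was -0.72 for Sult5a1 and -0.39 for Mgst2. Under Mix the lost calls gave 2.62 for Ugt2a1, 2.49 for Ugt2b10, 0.55 for Gstm7 and -0.44 for Gstp1. The change was larger than without the share for Gsta1 and smaller for the others, most of all for Mgst2. The part of the cell-type markers in the result was not tested. Apart from Gsta2 and Gsta5, every call in ovary was lost in some of its 9 fits that left out 1 library: under BPA Gsta1 in 5, Gstm7 in 4, Mgst1 in 3, Mgst2 in 5 and Sult5a1 in 7, and under Mix Gstm7 in 4, Gstt3 in 6, Gstp1 in 6, Mgst2 in 3, Mgst3 in 8, Ugt1a1 in 4, Ugt2a1 in 4 and Ugt2b10 in 5. The count fell to 2 under BPA without BPA replicate 2 or vehicle replicate 2 and to 3 without BPA replicate 3. Under Mix it fell to 2 without Mix replicate 1 or vehicle replicate 2, to 4 without Mix replicate 3 or vehicle replicate 3, and to 6 without BPA replicate 2.

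**Figure D3:**
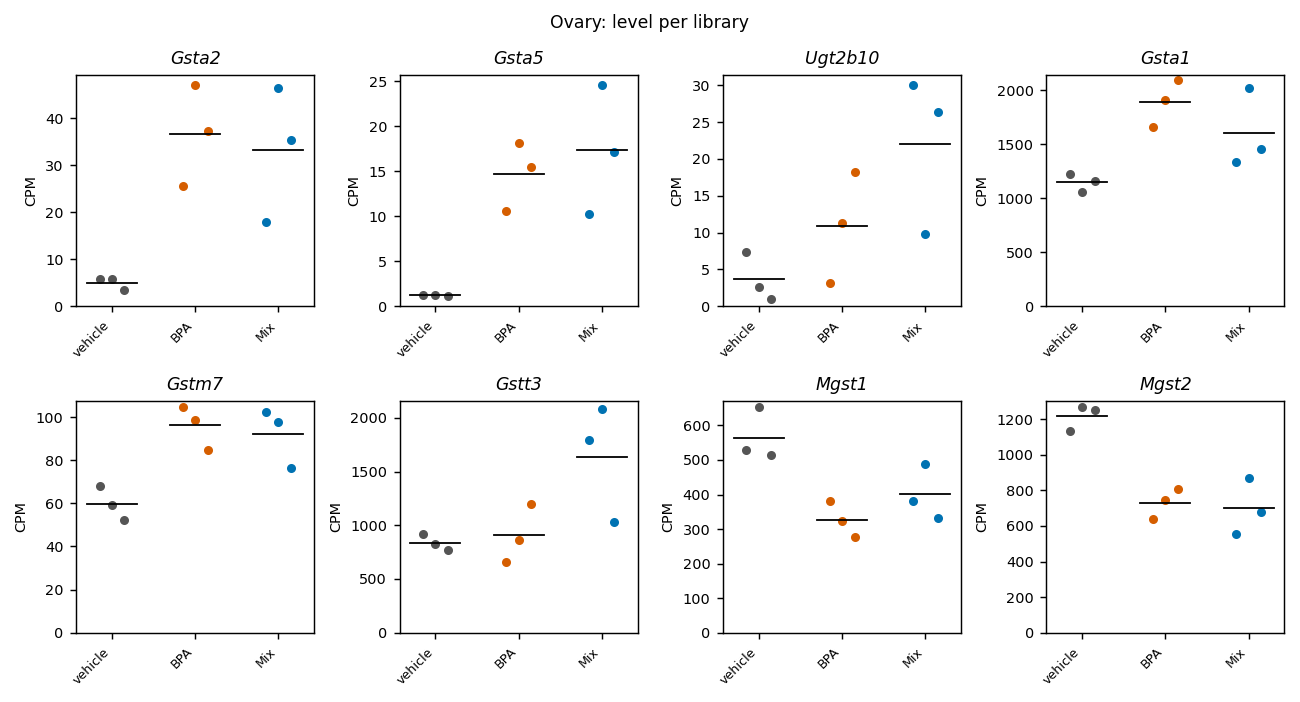
Level in CPM per ovary library (points) and group mean (bar) under vehicle, BPA and Mix. Gsta2 and Gsta5 are higher in all 6 treated ovaries, Mgst2 is lower in all 6, and Ugt2b10 separates from vehicle under Mix only.

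In kidney, vehicle females had lower levels of several transferases than vehicle males. Of 37 members tested, 8 differed, all lower in females, against 6.13% of 11651 genes in either direction. The median log2 difference was -0.50 over the members and 0.00 over all genes.
Mgst3 was at 716, 471 and 653 CPM in vehicle males and 255 and 166 CPM in vehicle females, without overlap (log2 -1.46 ± 0.27, adjusted p = 0.00489). Gstp1 was at 356, 356 and 352 CPM in males and 167 and 145 CPM in females (log2 -1.10 ± 0.21, adjusted p = 0.00489). The males were the higher group for both genes.
Gsta1 (log2 -1.46 ± 0.30, adjusted p = 0.00916), Gstt1 (-1.03 ± 0.23, adjusted p = 0.0143), Gstt3 (-1.20 ± 0.27, adjusted p = 0.0159) and Gstm1 (-2.15 ± 0.58, adjusted p = 0.0376) were lower in the same direction. Ugt2b7 held 246 counts in males and 2 in females, a ratio of 45.2 with a 95% counting interval of 12.5 to 373 (adjusted p = 0.012). Gstt4 held 89 counts in males and none in females, at least 10.9-fold lower against a floor of 3 counts over the female group (adjusted p = 0.0379); the germ cell markers that run with it are given below.
The vehicle females were 2 rats with 37.1% and 19.2% ribosomal RNA, against 1.71% to 3.50% in the vehicle males. With that share in the fit, added after the data were seen, 4 members passed, Gstm1, Gstp1 and Gstt1 among them. Among the calls lost, Gsta1 gave -1.43, Mgst3 -1.37, Gstt3 -1.30 and Ugt2b7 -5.59 (adjusted p = 0.122, 0.108, 0.112 and 0.0632). Kidney segment markers also differed: Slc34a1 of the proximal tubule was at 2171–2683 CPM in vehicle males and 1320 and 483 CPM in vehicle females (log2 -1.38, adjusted p = 0.0298), and Aqp2 of the collecting duct at 148–250 CPM and 400 and 426 CPM (1.12, adjusted p = 0.149). Lrp2 gave 0.67 (adjusted p = 0.165), Slc12a1 0.42 (adjusted p = 0.604) and Umod -0.07 (adjusted p = 0.903). The 5 kidney markers, none at 0, summed to 5851–7125 CPM in vehicle males and 5799–5855 CPM in vehicle females, and their part in the result was not tested. None passed without vehicle female replicate 2, 11 passed without vehicle female replicate 1, and 4 without vehicle male replicate 1.

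The BPA effect differed between the sexes in kidney for 3 of 37 members, against 4.73% of 11651 genes. Mgst3 was at 716, 471 and 653 CPM in vehicle males, 322, 370 and 390 CPM in BPA males, 255 and 166 CPM in vehicle females and 525 and 673 CPM in BPA females. The BPA libraries lay below the vehicle libraries in males and above them in females, without overlap, and the female minus male difference was log2 2.28 ± 0.37 (adjusted p = 0.0108). Within each sex the change did not pass: log2 -0.77 ± 0.24 in males (adjusted p = 0.119) and 1.51 ± 0.25 in females (adjusted p = 0.151).
Gstt1 gave a difference of 1.33 ± 0.32 (adjusted p = 0.0309) and Gstt3 of 1.38 ± 0.37 (adjusted p = 0.045), also theta-class genes that were higher in vehicle males. With ribosomal RNA in the fit the values were 2.15 for Mgst3 (adjusted p = 0.164), 1.96 for Gstt1 (adjusted p = 0.129) and 1.52 for Gstt3 (adjusted p = 0.236), so none of the calls held; the value was slightly lower for Mgst3 and higher for Gstt1 and Gstt3 than without it. Slc34a1 ran the same way, at 936–1039 CPM in BPA males and 1356 and 1410 CPM in BPA females, with a female minus male difference of 1.94 (adjusted p = 0.035). Lrp2 gave -1.29 (adjusted p = 0.067), Slc12a1 -1.73 (adjusted p = 0.106), Umod -0.86 (adjusted p = 0.166) and Aqp2 -0.48 (adjusted p = 0.694). The 5 markers summed to 5522–6216 CPM in BPA males and 3872–4169 CPM in BPA females, and their part in the result was not tested. The number called was 0 without BPA female replicate 2, 1 without BPA female replicate 1, vehicle female replicate 2, BPA male replicate 2, or vehicle male replicates 1 or 2, and it was 8 without vehicle female replicate 1, 7 without Mix male replicate 1 and 5 without Mix male replicate 2. For Mix the difference between the sexes was called for 0 of 37 members (0.00858% of genes; 4 members below an unadjusted 0.05 and 1 by DESeq2), and Mgst3 gave log2 1.61 (adjusted p = 0.333); without vehicle female replicate 1, 2 passed.

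**Figure D4:**
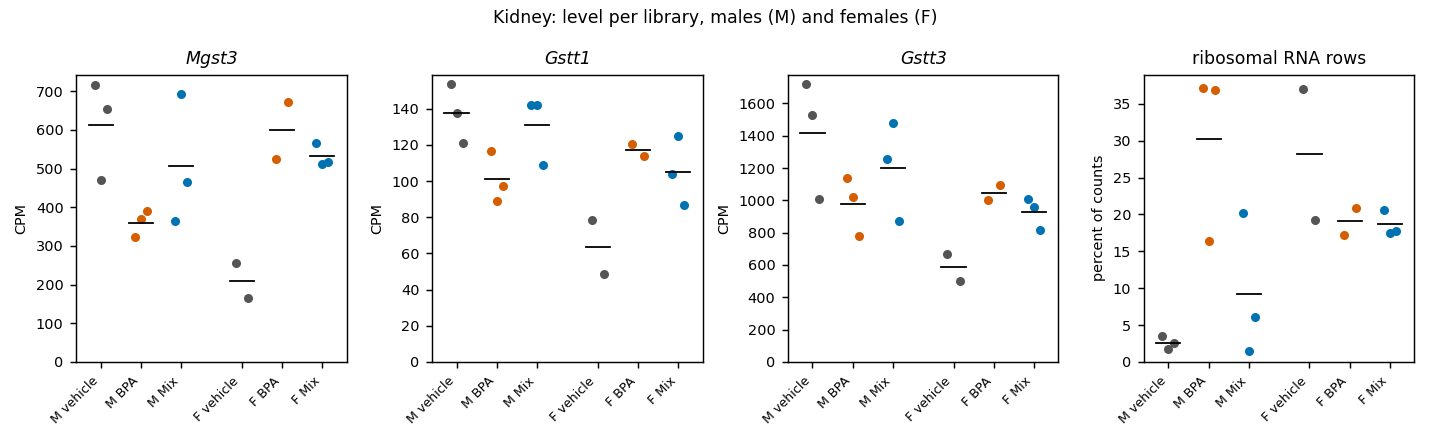
Level in CPM per kidney library (points) and group mean (bar) of Mgst3, Gstt1 and Gstt3 in males (M) and females (F), with the percent of counts in ribosomal RNA rows at the right. Vehicle females have the lowest mean for all 3 genes, and ribosomal RNA is at 1.71% to 3.50% in vehicle males and 16.4% to 37.2% in BPA males.

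In female kidney no member passed by edgeR. For BPA it called 0 of 32 (0% of 10681 genes), with 11 members at an unadjusted p below 0.05, all higher, and 3 by DESeq2. For Mix it called 0 (0%), with 9 below 0.05, of which 8 were higher and 1 lower, and 1 by DESeq2. Mix against BPA gave 0 (0%), with 3 below 0.05, all lower, and 0 by DESeq2. After Mgst3, the members with the smallest p were Gstz1, an enzyme of tyrosine breakdown, under BPA (log2 0.85, adjusted p = 0.151) and Gstt3 under Mix (0.67, adjusted p = 0.378). Mix against BPA gave -0.68 for both Gsta3 and Gsta1 (adjusted p = 0.683 for each). Ugt2b15, the most abundant Ugt2 row of kidney, was at 196.9 and 411 CPM in vehicle, 156.5 and 43.85 CPM in BPA and 36.65, 25.41 and 133.7 CPM in Mix females. Every treated library lay below every vehicle library, but it did not pass either. Without vehicle female replicate 1, 8 members passed under BPA and 3 under Mix.
In male kidney 0 of 32 members passed for BPA (0.136% of 11000 genes; 10 below 0.05 and 5 by DESeq2) and 0 for Mix (0.0273%; 3 and 0). Gstp1 was at 230, 206 and 282 CPM under BPA, below the 352 to 356 CPM of vehicle, with log2 -0.57 ± 0.16 (adjusted p = 0.101). Mgst2 gave 2.35 (adjusted p = 0.478) and Gstm1 -1.24 (adjusted p = 0.525) under Mix. Without Mix male replicate 1, 3 members passed for BPA, and 1 without Mix male replicate 2.

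Mix and BPA males differed in kidney for 2 of 32 members, against 2.93% of 11000 genes, and both are genes of the testis. Gstm5, a mu-class transferase of testis and sperm, was at 8.04, 3.18 and 4.88 CPM in vehicle, 1.32, 1.97 and 1.82 CPM in BPA and 9.08, 11.1 and 7.28 CPM in Mix males. All Mix libraries lay above all BPA libraries (log2 2.40 ± 0.46, adjusted p = 0.0207).
Gstt4 was at 4.23, 1.37 and 3.33 CPM in vehicle, 0.883, 0 and 0 CPM in BPA and 9.71, 5.42 and 4.95 CPM in Mix (log2 4.56 ± 0.95, adjusted p = 0.0265). The BPA group held 4 counts, all in 1 library, and the log2 value ran from 3.90 to 8.68 when 1 library was left out, so its size is uncertain. The group means stood in the same order as for Gstm5, but the order of the libraries within BPA and within Mix differed. The 5 germ cell markers, all detected, summed to 258–521 CPM in vehicle, 42.9–221 CPM in BPA and 948–1875 CPM in Mix male kidneys, and their part in the result was not tested. No member passed without BPA male replicate 2 or 3, 1 passed without Mix replicate 2 or vehicle replicate 3, and with ribosomal RNA in the fit Gstt4 alone passed (adjusted p = 0.0338).
Germ cell markers ran with the same genes elsewhere. In male thyroid, BPA replicate 1 had Gstm5 at 260, Gstm6 at 86.6 and Gstt4 at 196 CPM, where the other 8 libraries had at most 9.90, 4.26 and 2.71 CPM, and its marker sum of 16810 CPM compares with 8.44 to 718 CPM in those 8. In female thyroid, vehicle replicates 1 and 2, with marker sums of 3682 and 2168 CPM, had Gstt4 at 33.0 and 6.51 CPM against at most 2.24 CPM in the rest. In ovary Gstm5 was at 10.7 to 20.2 CPM in all 9 ovaries, whose marker sums ran from 0.693 to 662 CPM.

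**Figure D5:**
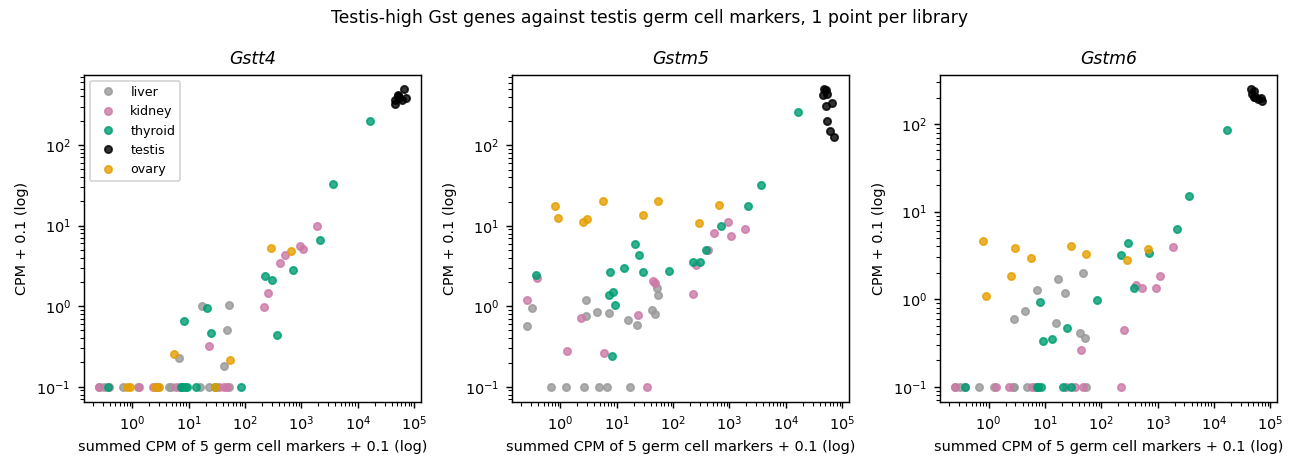
Level of Gstt4, Gstm5 and Gstm6 (CPM + 0.1, log axis) against the summed level of the 5 testis germ cell markers (CPM + 0.1, log axis), with 1 point per library coloured by organ. Thyroid and kidney libraries with more marker counts have more Gstt4, the thyroid library at 16810 CPM lies next to the testis group, and the ovaries hold Gstm5 at 10.7 to 20.2 CPM across marker sums of 0.693 to 662 CPM.

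In thyroid no member passed in any contrast. In males edgeR called 0 of 28 for BPA (0% of 11119 genes; 2 members below an unadjusted 0.05, none by DESeq2), 0 for Mix (0%; 5 and 0) and 0 for Mix against BPA (0%; 4 and 0). In females it called 0 of 28 for BPA (0% of 11127 genes; 4 and 2), 0 for Mix (0.00899%; 10, all lower, and 3) and 0 for Mix against BPA (0%; 2 and 0). The vehicle sexes differed for 0 of 34 members (0% of 12003 genes; 6 and 0; edgeR called 3 without female vehicle replicate 1).
Gstm1 had the smallest p in females. It was at 83.5, 78.4 and 80.2 CPM in vehicle, 19.8, 25.9 and 16.7 CPM in BPA and 24.2, 24.2 and 29.1 CPM in Mix thyroids. The vehicle values stood well clear of the other 6, with log2 -1.96 ± 0.24 for BPA (adjusted p = 0.0548) and -1.64 ± 0.24 for Mix (adjusted p = 0.0725), both above the threshold. For BPA, DESeq2 gave an adjusted p of 1.42e-09 and edgeR with RLE scaling 0.0491. Leaving out vehicle replicate 1 or 3 gave 2 members past the threshold for BPA and 2 or 3 for Mix, and leaving out BPA replicate 2 gave 1 for Mix.
Gstm7 followed under BPA (log2 -1.43, adjusted p = 0.328) and Sult1a1, the phenol sulfotransferase, under Mix (-1.85, adjusted p = 0.0762). Sult1a1 was at 233, 636 and 761 CPM in vehicle and 144, 157 and 151 CPM in Mix thyroids. Liver markers summed to 61.1–3623 CPM in vehicle, 11.3–118 CPM in BPA and 15.1–54.2 CPM in Mix female thyroids, all 5 detected. In the same order the 5 thyroid markers summed to 29410–51010, 48660–56250 and 53590–73970 CPM. The 5 fat markers summed to 829–6693, 586–1514 and 549–1602 CPM. Ribosomal RNA ran from 0.660% to 3.26% in vehicle and 11.7% to 23.7% in Mix. Only Alb, a liver marker, was put in a fit, and the part of the others was not tested. With Alb as a covariate in edgeR, Gstm1 gave -1.97 under BPA (adjusted p = 0.168) and -1.66 under Mix (adjusted p = 0.0683). Gstm7 gave -1.64 under BPA (adjusted p = 0.168) and Sult1a1 -2.40 under Mix (adjusted p = 0.0718).
Mix against BPA in females gave log2 0.71 for Gstm7 and -0.49 for Sult5a1 (adjusted p = 0.848 for both). In males the smallest p-values were those of Gstk1, a transferase of mitochondria and peroxisomes (log2 -0.64 for BPA, adjusted p = 0.586, and -0.63 for Mix, adjusted p = 0.922), and Sult1a1 (-0.79 for Mix, adjusted p = 0.922). Gstm5 (4.05, adjusted p = 0.586) under BPA, and Gstm6 (-7.31, adjusted p = 0.304) and Gstm5 (-4.77, adjusted p = 0.317) for Mix against BPA, carry the BPA library described above.

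In testis, 1 of 30 members differed between Mix and BPA, against 0.775% of 11098 genes. Gstp1 was at 31.1, 27.4 and 23.5 CPM in vehicle, 33.0, 47.7 and 50.5 CPM in BPA and 22.3, 22.1 and 19.2 CPM in Mix testes. The BPA libraries were the highest and the Mix libraries the lowest, without overlap, and Mix was 2.06-fold below BPA (log2 -1.04 ± 0.18, adjusted p = 0.0277). The call was lost in 6 of 9 fits that left out 1 library, each of replicates 2 and 3 of every group; without BPA replicate 1, 3 members passed here and 3 for BPA against vehicle, and without Mix replicate 1, 2 passed here.
Against vehicle, edgeR called 0 of 30 members for BPA (0%; 4 below an unadjusted 0.05, none by DESeq2) and 0 for Mix (0%; 1 and 0). Gstp1 gave 0.68 (adjusted p = 0.245) and Sult5a1 0.56 (adjusted p = 0.326) under BPA, and Ugt1a1 -0.45 (adjusted p = 0.893) and Gstp1 -0.37 (adjusted p = 0.965) under Mix. Gstt4, the most abundant testis-high member, was at 386–418 CPM in vehicle, 366–396 CPM in BPA and 318–489 CPM in Mix. Gstm5 varied within groups, from 126.2 to 487 CPM in BPA testes.

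Genes that serve these enzymes were counted beside them: 11 genes of cofactor supply with a row, 10 of conjugate removal, 2 of reversal and 10 regulators. In ovary under Mix, where 9.12% of all genes were called, 1 of 10 tested supply genes fell, Gss, which completes glutathione (57.0 to 65.9 CPM in vehicle, 29.7 to 39.6 CPM in Mix; log2 -0.87 ± 0.15, adjusted p = 0.00722). Sts, the sulfatase that frees steroids from their sulfates and 1 of 2 reversal genes, rose from 4.05 to 5.28 CPM to 12.5 to 18.3 CPM (log2 1.60 ± 0.30, adjusted p = 0.00909). No partner passed in any other treatment contrast within one organ and sex.
Between vehicle sexes in liver, Abcc2, the bile canalicular pump for conjugates, was higher in females (log2 1.07 ± 0.26, adjusted p = 0.0182) and Nr1i3, the nuclear receptor CAR, lower (-2.56 ± 0.59, adjusted p = 0.0125). In kidney, against 6.13% of all genes called, 3 of 10 removal genes were lower in females: Cndp2 (-1.53 ± 0.21, adjusted p = 0.000487), Nat8, which finishes mercapturic acids (-1.44 ± 0.22, adjusted p = 0.00107), and Abcg2 (-1.49 ± 0.28, adjusted p = 0.00441). Ugp2 (1.09, adjusted p = 0.00347) and Ahr (1.58, adjusted p = 0.00265) were higher in female kidney, and Papss1 (-0.96, adjusted p = 0.0276) and Hnf4a (-0.91, adjusted p = 0.0204) lower. Against 4.73% of all genes, the BPA effect in kidney differed between the sexes for 1 of 11 supply genes, 1 of 10 removal genes and 1 of 9 regulators tested: Ugp2 (female minus male -1.51, adjusted p = 0.0156), Nat8 (1.11, adjusted p = 0.045) and Hnf4a (1.40, adjusted p = 0.0217), in the same libraries whose ribosomal RNA share is given above.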

How the data were processed

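Per the labels, TRIzol was used for extraction and QuantSeq 3′ chemistry for the libraries. The submitters' processing notes name FastQC, Bowtie2, bedtools and edgeR with the build rn6; versions are not given in the sources used here. The authors deposited raw counts per gene symbol for 70 libraries; totals per library ran from 4803807 to 10929957. Each organ and sex was fitted with its 3 groups in edgeR 4.0.16 (R 4.3.3): filterByExpr, TMM scaling, quasi-likelihood test, Benjamini-Hochberg adjustment over all genes tested, threshold 0.05. Sex differences and their interaction with treatment came from one fit per organ over 6 groups. Levels are TMM-scaled CPM within one organ and sex; ± is SD for levels and SE for log2 changes. A fit on data simulated from these libraries was used to test the scripts. Alternatives were DESeq2 1.42.0, RLE scaling, no filter, a replicate block and leaving out each library. Ribosomal RNA was a covariate only in male kidney, in both kidney sexes together and in ovary, and Alb only in thyroid. Genes named are all members that passed, the 2 with the smallest p where none did, the highest-level members and a fixed list. Members and lists were chosen with earlier results of these data known.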

Additional observations from a re-analysis of the deposited data

Results flagged for a closer look

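In liver the BPA effect differed between the sexes for Ugt2b10 (female minus male log2 -1.88, adjusted p = 0.0161) and for Ugt2a1, a row that runs with it (-1.80, adjusted p = 0.0295), by edgeR's interaction test. The change within each sex did not pass: for Ugt2b10 it was -0.87 in females (adjusted p = 0.0664) and 1.01 in males (adjusted p = 0.27).

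In kidney the BPA effect differed between the sexes for Mgst3 (female minus male log2 2.28, adjusted p = 0.0108), Gstt1 (1.33, adjusted p = 0.0309) and Gstt3 (1.38, adjusted p = 0.045) by the same test. The groups there also differ in ribosomal RNA share, and the part of that share was tested only as a covariate, with which none of the 3 passed, at 2.15, 1.96 and 1.52. The changes within each sex did not pass either.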

How the results depend on the processing

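Numbers of members called moved by more than 1.5 times as follows. DESeq2 called 7 (against 3) for the BPA effect by sex in kidney, 3 for BPA and 1 for Mix in female kidney, 5 for BPA in male kidney, 1 for the Mix effect by sex in kidney, 5 (against 1) for BPA and 1 for Mix against BPA in female liver, 2 for BPA and 1 for Mix in male liver, 2 for Mix against BPA in ovary, 2 (against 1) for that contrast in testis, and 2 for BPA and 3 for Mix in female thyroid, where RLE scaling gave 1 for BPA. Without the low-count filter the numbers were 5 for the BPA effect by sex in kidney, 1 and 2 for BPA and Mix in female kidney, 5 and 2 for the BPA and Mix effects by sex in liver, 6, 1 and 3 for BPA, Mix and their difference in female liver, and 4 and 2 for BPA and Mix in male liver. With ribosomal RNA as covariate they were 0 for the BPA effect by sex, 1 for Mix against BPA in males and 4 (against 8) for the sexes in kidney, and 2 and 6 (against 7 and 10) for BPA and Mix in ovary.

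Same-numbered libraries of different groups had median correlations from -0.0953 in female thyroid to 0.123 in male kidney. In male kidney they ran from -0.05 to 0.25, against a median of -0.075 for libraries with other numbers. Such values cannot show whether the numbers pair the samples, and the main fits did not pair them. With the replicate number as a block, 1 member (against 2) was called for the BPA effect by sex in liver, 0 for BPA in female liver and 0 for Mix against BPA in testis; the other numbers stayed within 1.5 times. The single calls lost with the block were Gstm1 for BPA in female liver, Ugt2a1 for the BPA effect by sex and Gsta3 and Gstm7 for the sexes in liver, Sult5a1 for BPA (-0.95, adjusted p = 0.0715) and Ugt2b10 for Mix (2.53, adjusted p = 0.052) in ovary, and Gstp1 in testis.

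Leaving out 1 library at a time gave, from lowest to highest, 0 to 8 for the BPA effect by sex, 0 to 2 for the Mix effect by sex and 0 to 11 for the sexes in kidney, 0 to 8 for BPA and 0 to 3 for Mix in female kidney, 0 to 3 for BPA and 0 to 2 for Mix against BPA in male kidney, 0 to 3 for the BPA effect by sex and 7 to 13 for the sexes in liver, 0 to 1 for BPA in female and in male liver, 2 to 8 for BPA and 2 to 11 for Mix in ovary, 0 to 3 for BPA and for Mix against BPA in testis, 0 to 2 for BPA and 0 to 3 for Mix in female thyroid, and 0 to 3 for the thyroid sexes. Without BPA replicate 1 of male thyroid, Gstm5 changed sign, to -1.42 for BPA and 0.72 for Mix against BPA; its other ends when 1 library was left out were 4.87 and -5.47. Of 46 calls named, 11 held whichever library was left out and under every other method run for that organ. They were Gsta2 and Gsta5 in ovary under both treatments, and 7 sex differences in liver. The liver calls include both Ugt2b10 and Ugt2a1, which run together. Ribosomal RNA was not fitted as a covariate in liver, so these calls were not put to that alternative. The cause of these shifts was not tested.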
